A study of Mus musculus with 32 samples.

Results

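Subunits of the heterotrimeric G proteins and the regulators of G protein signaling (RGS) were represented by 82 probes of 53 gene symbols, out of 25697 probes of 18138 symbols on the array. They were taken by symbol: every α (Gna), β (Gnb) and γ (Gng) subunit symbol and every RGS symbol, with 1 RGS symbol left out. The rule used no expression value, although the members were chosen with earlier results of these data known. The pattern of letters also took in 5 symbols that are neither subunits nor RGS proteins. These were the RGS-binding proteins Rgs7bp and Rgs9bp, the β-like proteins Gnb1l and Gnb2l1 (named Rack1 in RefSeq), and Gnal1, a G protein-like GTPase that RefSeq lists as Gnl1.

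Expression in the frontal cortex (FCtx) was measured on Illumina MouseRef-8 v2.0 arrays, 1 for each of 32 female F1 hybrid mice, labelled C57BL/6J x FVB/NJ F1 in both groups. The 20 ethanol-treated mice had a choice of 20% ethanol or water for part of each dark phase over 20 days and were killed 20 hours after the last session, and the 12 controls were matched mice of the same cross. The methods describe reciprocal crosses without saying which mouse came from which, and neither the age of the mice nor what the controls drank is given in the sources used here. The comparison of ethanol with control asks how voluntary binge-like drinking changed expression in FCtx.

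In this signaling system a receptor makes the α subunit exchange GDP for GTP, after which α and the βγ pair act separately on adenylyl cyclases, phospholipase C and ion channels. RGS proteins end the signal by speeding GTP hydrolysis on α. Receptors for dopamine, opioids, GABA (the GABA-B receptor) and glutamate (the metabotropic receptors) signal this way in cortex, and the potassium channels opened by βγ are also known to be opened by ethanol itself.

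The layout of the arrays limits what the comparison can separate. Chips 1 and 2 held 8 ethanol-treated mice each and chip 4 held 8 controls, whereas chip 3 held 4 ethanol-treated mice, all at odd positions, and 4 controls, all at even positions. Treatment between chips 1 and 2 and chip 4 therefore cannot be told apart from chip, and treatment on chip 3 cannot be told apart from odd or even position. For that reason the members called over all arrays or on chip 3 are given over all arrays, on chip 3 alone (4 against 4) and between chips 1 and 2 and chip 4 (16 against 8). The last pair of comparisons shares no array.

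Values are normalized log2 signals, in which 1 unit is about a doubling for well-expressed probes and more than a doubling near background. Fold changes are 2 to the power of the log2 change, which understates them for dim probes. Different probes bind with different strength, so that values are compared between mice for 1 probe and not between genes. A probe was tested when its signal exceeded that of negative control beads (detection p below 0.01) on at least 24 of the 32 arrays. A call required a false discovery rate (FDR) under 1%, or one under 10% together with a difference of 1.1-fold or more. The FDR came from limma over all 10187 tested probes. Between 10644 and 11544 probes were detected in ethanol-treated mice and between 9480 and 11413 in controls. Median raw signals ranged from 166 to 203 in ethanol-treated mice and from 146 to 187 in controls. Neuronal markers were present (6 of 9 genes tested, with Snap25, Nefl and Gad2 not). Olfactory bulb markers were detected too (5 of 8 genes tested, with Tbx21, Eomes and Shisa3 not), although the section was meant to leave the bulb out, and so were striatal markers (3 of 7, with Drd2, Adora2a, Pde10a and Gpr6 not).

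Of the 82 member probes, 34 probes of 30 genes were tested, and 32 of these were detected on all arrays. The other 48 probes included 31 that were detected on 0 arrays, 13 detected on 1 to 7 arrays and 4 detected on 14 to 23 arrays. Because of this, 23 genes had no tested probe: the α subunits Gnai3, Gnat1, Gnat2, Gnat3, Gna14, Gna15 and Gnal, the β subunit Gnb3, the γ subunits Gng8, Gng11, Gng12, Gngt1 and Gngt2, the RGS genes Rgs1, Rgs2, Rgs13, Rgs14, Rgs18, Rgs19 and Rgs20, and Rgs9bp, Gnb1l and Gnb2l1. Several of these are known from other tissues, such as the transducin α subunits Gnat1 and Gnat2 of photoreceptors and Gnat3 of taste cells. An undetected probe does not show that the gene is silent, since Gnaq, Gnas, Gnb5, Gng7 and Rgs3 each had at least 1 probe detected on 0 arrays beside a tested one.

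Over all arrays, 14 of the 34 tested member probes were called (41.2%), against 14.5% of all tested probes. Transcripts of the stimulatory α subunit Gnas, of Gna13 and Gnao1, of Rgs4 and Rgs5 and of Rgs7bp were higher in ethanol-treated mice, and those of Gnai2, Gna11, Gnb2, Gng2, Gng10, Gng13 and Rgs8 were lower. The calls split into 7 higher (20.6%, against 7.26% of all tested probes) and 7 lower (20.6%, against 7.22%). At an FDR below 1%, 9 probes remained (26.5%, against 8.21%). The changes were small: the largest was 1.36-fold, the median size was 0.14 on the log2 scale, against 0.05 over all tested probes, and the signed median was 0.0011, against -0.0030. Since whole tissue was measured, fewer cells of a type and less RNA per cell cannot be told apart.

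The number of lower calls depended on the scaling. When arrays were scaled to a common median instead of a common distribution, the same 7 probes were called higher (20.6%, against 9.12% of all tested probes). Of the lower calls, only Gng2 remained (1 probe, against 1.3%). Under this scaling 87.6% of all calls were higher, against 50.2% with quantile normalization, and the median of all tested probes moved to 0.04 on the log2 scale. The 6 probes that lost their call (Gnai2, Gna11, Gnb2, Gng10, Gng13 and Rgs8) kept a negative sign, with changes between -0.15 and -0.09.

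On chip 3, 10 of the 34 probes were called (29.4%, against 16.8% of all tested probes). The 4 higher calls (against 8.2% of all tested probes) were Gna13, Gng4, Rgs10 and Rgs7bp, and the 6 lower calls (against 8.64%) were Gna11, Gnai2, Gnb1, Gnb2, Gng2 and Rgs12. At an FDR below 1% there were 2, Gna13 and Gng2 (against 2.67%). For 7 of the 34 probes the 4 ethanol-treated mice and the 4 controls of this chip did not overlap, against 15.2% of all tested probes. Between chips 1 and 2 and chip 4, 20 probes were called (58.8%, against 21.8%), 9 of them higher (against 11%) and 11 lower (against 10.8%).

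**Figure D1:**
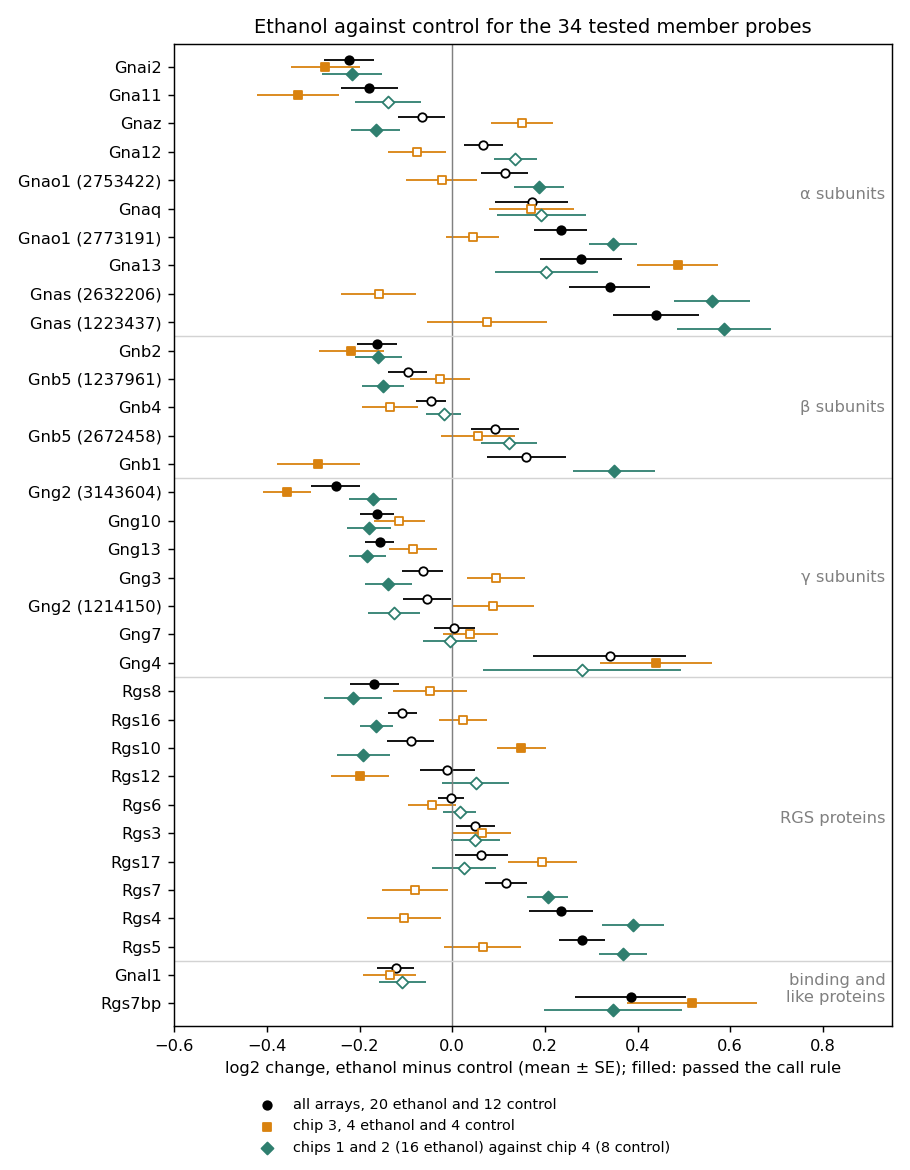
The horizontal axis gives the log2 change of ethanol-treated mice minus controls, with its standard error, for each of the 34 tested member probes (vertical axis, grouped by role and ordered by the change over all arrays, with the probe number in brackets where a gene had several), over all arrays (black circles), on chip 3 (orange squares) and between chips 1 and 2 and chip 4 (green diamonds). Filled symbols passed the call rule. The black and green symbols lie close together for most probes, while the orange ones lie on the other side of zero for several, among them Gnb1, Rgs4, Rgs10 and a Gnas probe, and with median scaling the change over all arrays turned positive for Rgs12 and for the Gng2 probe ILMN_1214150.

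In both of the comparisons that share no array, 4 of the 34 probes were called in the same direction (11.8%, against 2.94% of all tested probes). They were Gng2, Gnai2 and Gnb2, which were lower in ethanol-treated mice, and Rgs7bp, which was higher. With median scaling none of these 4 was called between chips 1 and 2 and chip 4, with changes of -0.06 for Gng2 (adjusted p = 0.446), -0.11 for Gnai2 (adjusted p = 0.483), -0.06 for Gnb2 (adjusted p = 0.6002) and 0.43 for Rgs7bp (adjusted p = 0.153). By limma 0 members were then called lower between these chips, against 103 of the 10187 tested probes. At an unadjusted p below 0.05, 1 member was lower. On chip 3 Gng2, Gnai2 and Rgs7bp were still called with median scaling and Gnb2 was not. A further 2 probes, Gnb1 and Rgs10, were called in opposite directions (5.88%, against 1.97%). The sign of the change was the same on chip 3 and between the other chips for 20 of the 34 member probes (58.8%) and for 51% of all tested probes.

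The γ subunit Gng2, a membrane-anchored partner of β subunits that is widely expressed in brain, had 2 tested probes, both annotated to chromosome 14. For the probe ILMN_3143604 the 4 ethanol-treated mice of chip 3 had normalized log2 signals of 9.04, 8.91, 8.99 and 9.01, and the 4 controls 9.28, 9.38, 9.36 and 9.35. All 4 controls were above all 4 ethanol-treated mice, by a mean of 0.36 (SE 0.05, 1.28-fold, adjusted p = 0.00215). Over all arrays the lowest, median and highest values were 8.69, 8.86 and 9.05 in ethanol-treated mice and 8.85, 9.11 and 9.38 in controls. All 20 ethanol-treated mice lay below the control median, although the ranges overlapped, and the change was -0.25 (SE 0.05, 1.19-fold lower, adjusted p = 0.00139). It was -0.17 (SE 0.05, adjusted p = 0.0163) between chips 1 and 2 and chip 4.

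The other Gng2 probe, ILMN_1214150, did not show this. Its values on chip 3 were 9.12, 8.91, 8.72 and 8.67 in ethanol-treated mice and 8.88, 8.63, 8.79 and 8.76 in controls, which overlapped. Its change was -0.05 (SE 0.05, adjusted p = 0.497) over all arrays and 0.09 (SE 0.09, adjusted p = 0.574) on chip 3. Both probes are annotated to the same transcript, ILMN_1214150 from base 629 and ILMN_3143604 from base 3533.

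Gnai2 encodes an inhibitory α subunit, which lowers adenylyl cyclase activity. On chip 3 its signals were 9.23, 9.31, 9.46 and 9.60 in ethanol-treated mice and 9.59, 9.70, 9.72 and 9.68 in controls. The groups overlapped by 1 mouse, and the change was -0.27 (SE 0.07, 1.21-fold lower, adjusted p = 0.0334). Over all arrays the lowest, median and highest signals were 9.11, 9.45 and 9.86 with ethanol and 9.58, 9.69 and 9.89 without. Of the 20 ethanol-treated mice 18 were below the control median, and the change was -0.22 (SE 0.05, adjusted p = 0.00388). It was -0.22 (SE 0.07, adjusted p = 0.0173) between the other chips.

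Gnb2 encodes a β subunit found in most tissues. On chip 3 its signals were 11.05, 10.97, 10.95 and 11.15 in ethanol-treated mice and 11.20, 11.43, 11.25 and 11.13 in controls. One control lay within the ethanol range, and the change was -0.22 (SE 0.07, adjusted p = 0.0636). Over all arrays signals ran from 10.93 over a median of 11.14 to 11.34 with ethanol and from 11.11 over 11.30 to 11.51 without, and 18 of 20 ethanol-treated mice were below the control median. This change was -0.16 (SE 0.04, adjusted p = 0.00918), and it was -0.16 (SE 0.05, adjusted p = 0.0225) between the other chips. The chip 3 call was lost when mouse A46, A47, A49, C54 or C55 was left out (adjusted p between 0.102 and 0.170).

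Rgs7bp anchors the RGS proteins of the R7 family at the membrane together with the β subunit Gnb5. Its signals on chip 3 were 12.38, 12.36, 11.93 and 11.69 in ethanol-treated mice and 11.70, 11.70, 11.64 and 11.24 in controls. A single ethanol-treated mouse fell within the control range, and the change was 0.52 (SE 0.14, 1.43-fold higher, adjusted p = 0.0349). Over all arrays the lowest, median and highest signals were 11.33, 12 and 12.71 with ethanol and 11.24, 11.56 and 12.35 without, a change of 0.39 (SE 0.12, adjusted p = 0.0216). The change was 0.35 (SE 0.15, adjusted p = 0.0881) between the other chips. The chip 3 call was lost without mouse A47 (adjusted p = 0.101) and when all probes on the array were tested (adjusted p = 0.12).

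Rgs7bp also moved where treatment did not. Ethanol-treated mice of chip 1 were lower than those of chip 2 by 0.52 (SE 0.13, adjusted p = 0.0666), which was the only call among the members in that comparison (1 of 34, against 2.04% of all tested probes). Odd positions were higher than even ones by 0.30 (SE 0.10, adjusted p = 0.0519) on chips 1, 2 and 4. The part of chip and position in the ethanol difference was not tested.

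**Figure D2:**
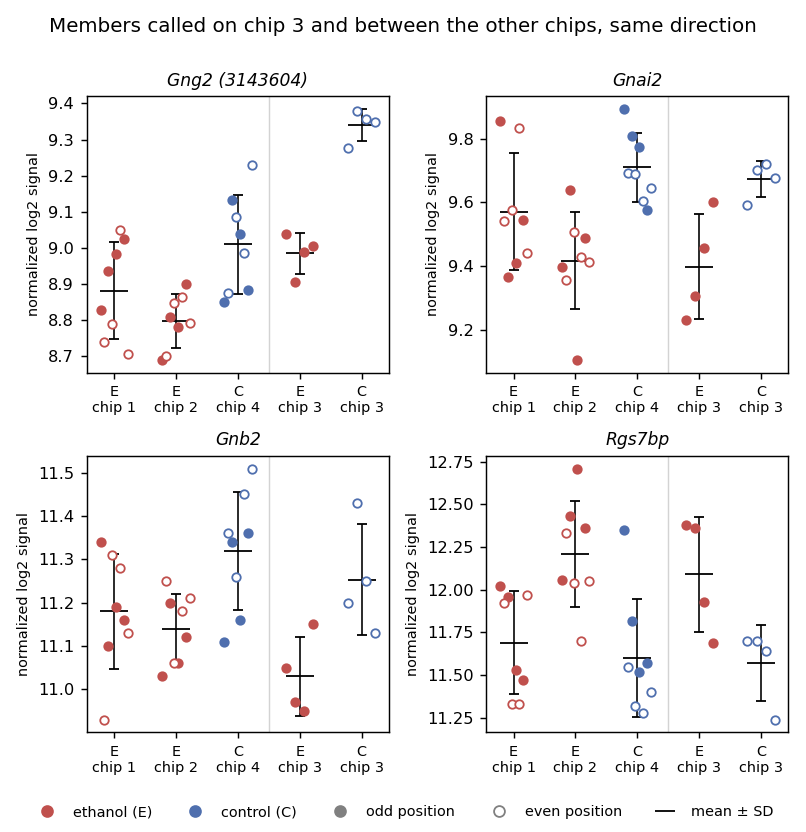
Normalized log2 signal (vertical axes) of each mouse for the 4 member probes called in the same direction on chip 3 and between the other chips, by treatment and chip (horizontal axes), with filled points for odd and open points for even positions and bars for the mean ± SD of each set of arrays. On chip 3 the Gng2 points of ethanol-treated mice and controls are apart, those of Gnai2, Gnb2 and Rgs7bp overlap by 1 mouse, none of the 4 was called between the other chips with median scaling, and the ethanol-treated mice of chip 2 are the highest set for Rgs7bp.

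Among the α subunits 10 probes of 8 genes were tested. Over all arrays 4 were called higher (against 7.26% of all tested probes) and 2 lower (against 7.22%). The largest changes were those of Gnas on chromosome 2, which encodes the stimulatory α subunit that activates adenylyl cyclase. Gnas makes several transcripts from alternative first exons, and its tested probes cover different parts of them. The sequence of ILMN_1223437 is shown as deposited, since this probe had the largest change over all arrays and holds codons near the start of the α subunit.
Gnas ILMN_1223437: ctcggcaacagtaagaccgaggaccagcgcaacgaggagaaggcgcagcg

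For the Gnas probe ILMN_2632206 the lowest, median and highest signals were 11.24, 11.63 and 11.81 in ethanol-treated mice and 10.66, 11.27 and 11.81 in controls, and 19 of 20 ethanol-treated mice were above the control median. The change was 0.34 (SE 0.09, 1.27-fold higher, adjusted p = 0.00639). For ILMN_1223437 the same values were 9.53, 10.06 and 10.57 with ethanol and 9.10, 9.70 and 10.37 without. Again 19 of 20 ethanol-treated mice were above the control median, and the change was 0.44 (SE 0.09, 1.36-fold, adjusted p = 0.00139). Both probes thus pointed the same way over all arrays, with overlapping ranges.

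With all mice, the Gnas probes were called between the chips and not on chip 3. Between chips 1 and 2 and chip 4 the changes were 0.56 (SE 0.08, adjusted p = 2.3e-05) for ILMN_2632206 and 0.59 (SE 0.10, adjusted p = 0.000163) for ILMN_1223437. On chip 3 ILMN_2632206 read 11.38, 11.58, 11.45 and 11.44 in ethanol-treated mice and 11.74, 11.81, 11.46 and 11.47 in controls. The controls were the higher ones here by the mean, with a change of -0.16 (SE 0.08, adjusted p = 0.233). ILMN_1223437 read 9.99, 9.91, 9.96 and 9.97 against 10.37, 9.51, 9.72 and 9.92, a change of 0.08 (SE 0.13, adjusted p = 0.762). This probe was called higher on chip 3 when control mouse C52, at 10.37, was left out. The difference between the effect on chip 3 and that between the other chips was -0.72 (SE 0.15, adjusted p = 0.0032) and -0.51 (SE 0.20, adjusted p = 0.0951). Odd positions of chips 1, 2 and 4 were lower than even ones by a log2 difference of -0.19 (SE 0.07, adjusted p = 0.0564) for ILMN_2632206.

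Gnao1 encodes the α subunit Go, which is abundant in neurons. Its probe ILMN_2773191 ran from 11.34 over a median of 11.54 to 11.80 in ethanol-treated mice and from 10.96 over 11.24 to 11.66 in controls. All 20 ethanol-treated mice were above the control median, and the change was 0.23 (SE 0.06, 1.18-fold, adjusted p = 0.00432). On chip 3 the signals were 11.58, 11.67, 11.54 and 11.66 against 11.60, 11.53, 11.66 and 11.49, which overlapped (0.04, SE 0.06, adjusted p = 0.675). The change was 0.35 (SE 0.05, adjusted p = 3.19e-05) between the other chips. The other Gnao1 probe, ILMN_2753422, had a change of 0.11 (SE 0.05, adjusted p = 0.119) over all arrays and -0.02 (SE 0.08, adjusted p = 0.891) on chip 3.

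Gna13 encodes an α subunit of the G12 family. On chip 3 its signals were 9.14, 9.11, 8.82 and 8.79 in ethanol-treated mice and 8.62, 8.54, 8.36 and 8.40 in controls. All 4 ethanol-treated mice were above all 4 controls, with a change of 0.49 (SE 0.09, 1.40-fold higher, adjusted p = 0.00448). Over all arrays the lowest, median and highest signals were 8.42, 8.81 and 9.30 with ethanol and 8.25, 8.55 and 9.05 without, a change of 0.28 (SE 0.09, adjusted p = 0.0249). Between the other chips it was 0.20 (SE 0.11, adjusted p = 0.189). Odd positions were higher than even ones by 0.31 (SE 0.09, adjusted p = 0.0207) on chips 1, 2 and 4, the same direction as treatment on chip 3. Gna12 of the same family changed by 0.07 (SE 0.04, adjusted p = 0.271) over all arrays.

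Gna11 encodes an α subunit that activates phospholipase C beta. Its signals on chip 3 were 9.20, 9.31, 9.33 and 9.37 in ethanol-treated mice and 9.41, 9.49, 9.77 and 9.86 in controls. All 4 controls were higher than all 4 ethanol-treated mice, and the change was -0.33 (SE 0.09, 1.26-fold lower, adjusted p = 0.0313). Over all arrays the signals ran from 9.18 over a median of 9.40 to 9.80 with ethanol and from 9.36 over 9.62 to 9.88 without, a change of -0.18 (SE 0.06, adjusted p = 0.0374). It was -0.14 (SE 0.07, adjusted p = 0.157) between the other chips. The closely related Gnaq had a change of 0.17 (SE 0.08, adjusted p = 0.124) over all arrays. Odd positions were lower than even ones by a log2 difference of -0.27 (SE 0.04, adjusted p = 0.000361) for Gna11 and higher by 0.24 (SE 0.08, adjusted p = 0.0385) for Gnaq. For Gna11 and Gna13 the difference with position had the direction of treatment on chip 3.

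With the odd or even position added to the comparison over all arrays, Gna11 changed by -0.11 (SE 0.05, adjusted p = 0.0846) and was no longer called, whereas Gna13 changed by 0.20 (SE 0.08, adjusted p = 0.0611). In all, position was a call for 7 of the 34 members on chips 1, 2 and 4 (20.6%, against 11.6% of all tested probes): Gna11, Gna13, Gnaq, Gnas (ILMN_2632206), Gnb1, Rgs4 and Rgs7bp. For each of these 7 the difference of odd from even positions had the sign of the change on chip 3. For Rgs4 that difference with position was -0.17 (SE 0.06, adjusted p = 0.049).

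**Figure D3:**
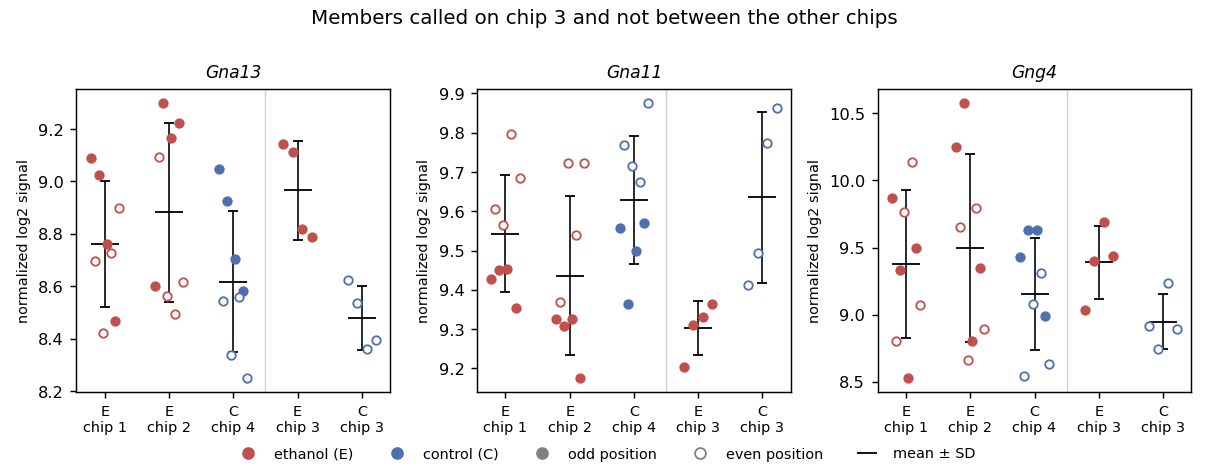
Normalized log2 signal (vertical axes) of each mouse for Gna13, Gna11 and Gng4, 3 members called on chip 3 and not between the other chips, by treatment and chip (horizontal axes), with filled points for odd and open points for even positions and bars for the mean ± SD. On chip 3 the sets do not overlap for Gna13 and Gna11, and over chips 1, 2 and 4 odd positions of Gna11 differed from even ones by -0.27.

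The β subunits had 5 tested probes of 4 genes. Besides Gnb2, the call on chip 3 was Gnb1 on chromosome 4, a β subunit common in brain. Its signals there were 9.99, 10.26, 10.26 and 10.20 in ethanol-treated mice and 10.40, 10.74, 10.30 and 10.41 in controls. The controls were all higher, and the change was -0.29 (SE 0.09, 1.22-fold lower, adjusted p = 0.0557). Without mouse A46 or C54 the adjusted p was between 0.131 and 0.139. Odd positions of chips 1, 2 and 4 differed from even ones by -0.24 (SE 0.07, adjusted p = 0.0233), also the direction of treatment on chip 3. Between the other chips Gnb1 was higher with ethanol by 0.35 (SE 0.09, adjusted p = 0.00507), and the effects differed by -0.64 (SE 0.16, adjusted p = 0.0117). Over all arrays the change was 0.16 (SE 0.09, adjusted p = 0.195), with signals from 9.99 over 10.31 to 10.60 with ethanol and from 9.38 over 10.23 to 10.74 without. The other 3 β probes, 1 of Gnb4 and 2 of Gnb5, the β subunit that pairs with R7 RGS proteins, had changes between -0.10 and 0.09 over all arrays and were not called there.

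Among 7 probes of 6 γ subunit genes, 3 were called lower over all arrays (against 7.22% of all tested probes). Besides Gng2 these were Gng13, a γ subunit first known from taste and olfactory tissue, and the widely expressed Gng10. For Gng13 the lowest, median and highest signals were 12.23, 12.36 and 12.54 in ethanol-treated mice and 12.42, 12.49 and 12.65 in controls. Of 20 ethanol-treated mice 19 were below the control median, and the change was -0.16 (SE 0.03, 1.11-fold lower, adjusted p = 0.000865). On chip 3 the signals were 12.39, 12.32, 12.43 and 12.41 against 12.44, 12.46, 12.55 and 12.45, which did not overlap (-0.09, SE 0.05, adjusted p = 0.318).

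For Gng10 on chromosome 4 the signals ran from 10.41 over a median of 10.58 to 10.74 with ethanol and from 10.55 over 10.75 to 10.93 without. All 20 ethanol-treated mice lay below the control median, and the change was -0.16 (SE 0.04, 1.12-fold lower, adjusted p = 0.0024). Its change on chip 3, with signals of 10.57, 10.65, 10.71 and 10.52 against 10.75, 10.70, 10.76 and 10.69, was -0.11 (SE 0.06, adjusted p = 0.203). Between the other chips Gng13 and Gng10 were both lower, by log2 differences of -0.18 (SE 0.04, adjusted p = 0.00149) and -0.18 (SE 0.05, adjusted p = 0.00698).

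Gng4 on chromosome 13 varied most of all members between mice, with an SD within sets of arrays of 0.51, against a median of 0.13 over the members and 0.11 over all tested probes. On chip 3 its signals were 9.03, 9.40, 9.69 and 9.44 in ethanol-treated mice and 8.92, 8.75, 9.24 and 8.89 in controls. The groups overlapped, and the change was 0.44 (SE 0.12, 1.36-fold higher, adjusted p = 0.0369), or 0.34 with an adjusted p of 0.104 without mouse C54. Over all arrays its range was 8.53 to 10.58 with ethanol (median 9.42) and 8.55 to 9.63 without (median 9.04), and the change was 0.34 (SE 0.16, adjusted p = 0.15). It was 0.28 (SE 0.21, adjusted p = 0.369) between the other chips.

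Olfactory bulb markers moved with Gng4. Of 5 tested marker probes 3 were called higher on chip 3, and their summed signal (2 to the power of each normalized value, added up) ranged from 2190 to 2797 in ethanol-treated mice and from 1228 to 1810 in controls of that chip. Over all arrays, 0 of the 5 were called, and the sum ranged from 1117 to 4817 and from 1104 to 3354. The part of this in the Gng4 difference was not tested. After the mean of each set of mice with the same treatment, chip and odd or even position was subtracted, Gng4 followed the summed bulb markers over the 32 arrays (Pearson's r = 0.924, Spearman's rho = 0.905, permutation p = 1e-05 for each, the smallest that 100000 resamples can give, adjusted p = 0.00012 over 12 relations, and r = 0.90 without the 2 mice farthest from the median).

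There were 10 RGS genes with 1 tested probe each. Over all arrays 2 of them, Rgs4 and Rgs5, were called higher (against 7.26% of all tested probes) and 1, Rgs8, lower (against 7.22%). These 3 belong to the R4 family, small RGS proteins that act on Gi/o and Gq α subunits. Rgs4 is prominent in cortical neurons and Rgs5 is known as a marker of pericytes. In RefSeq the genes of Rgs4 and Rgs5 are neighbors on chromosome 1 with 0 protein-coding genes between them, and so are those of Rgs8 and Rgs16.

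Rgs4 and Rgs5 are neighbors that were both called higher over all arrays, though neither was called on chip 3. For this reason the 150 bases before each start site are shown as RefSeq gives them (build GRCm38.p6), 5′ to 3′ on the strand of the gene. Capitals mark, on either strand, the TATA box searched as TATAAA. They also mark the CCAAT box, searched by the letters of its name. The last motif marked is a short form of the cAMP response element, searched as TGACG.
Rgs4, chr1:169747643-169747792, minus strand: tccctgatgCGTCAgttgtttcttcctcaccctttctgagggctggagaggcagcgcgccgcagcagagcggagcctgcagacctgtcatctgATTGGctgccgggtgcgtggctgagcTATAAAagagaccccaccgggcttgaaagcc
Rgs5, chr1:169655351-169655500, plus strand: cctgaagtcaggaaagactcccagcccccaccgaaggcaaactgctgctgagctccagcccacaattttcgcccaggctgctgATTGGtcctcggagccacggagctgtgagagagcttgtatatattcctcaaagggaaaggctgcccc

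The Rgs4 stretch holds 1 match to each motif, with TATAAA beginning 31 bases before the start, and the Rgs5 stretch holds only the CCAAT match, beginning 67 bases before the start. In the 250 bases before the start of 32851 transcripts, TATAAA occurred in 12.4%, CCAAT in 33.8% and TGACG in 17.8%. Among the 53 windows of the members TGACG was found in 13, TATAAA in 8 and CCAAT in 14. By gene, TGACG was found for 3 of 6 members called higher with such a window (Gnas, Rgs4 and Rgs7bp) and 1 of 6 called lower (Rgs8), TATAAA for 2 (Gnas and Rgs4) and 0, and CCAAT for 4 (Gnas, Rgs4, Rgs5 and Rgs7bp) and 1 (Rgs8). The GC box, searched as GGGCGG and not marked above, occurred in 32.7% of all windows and in 24 of the 53 of the members. It was found for 2 of 6 members called higher (Gna13 and Gnas) and 3 of 6 called lower (Gna11, Gng10 and Gng13). The 6 genes of each direction had 9 windows, so counts by gene are not comparable with shares of windows. The full element TGACGTCA, which contains TGACG, occurred in 1.55% of all windows and in 0 of the 53 windows of the members. These matches are letters in a window and say nothing about binding.

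For Rgs4 the lowest, median and highest signals were 11.93, 12.36 and 12.59 in ethanol-treated mice and 11.79, 12.07 and 12.57 in controls. Of 20 ethanol-treated mice 19 were above the control median, and the change was 0.23 (SE 0.07, 1.18-fold higher, adjusted p = 0.0158). The signals on chip 3 were 12.29, 12.38, 12.29 and 12.25 with ethanol and 12.57, 12.56, 12.31 and 12.19 without. The highest values there were those of 2 controls, and the change was -0.10 (SE 0.08, adjusted p = 0.452). Between the other chips it was 0.39 (SE 0.07, adjusted p = 0.000154), and the effects differed by -0.49 (SE 0.13, adjusted p = 0.0115).

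For Rgs5 the signals ran from 8.27 over a median of 8.54 to 8.79 with ethanol and from 8.06 over 8.26 to 8.52 without. All 20 ethanol-treated mice were above the control median, and the change was 0.28 (SE 0.05, 1.21-fold, adjusted p = 0.000293). Chip 3 gave 8.63, 8.67, 8.33 and 8.27 against 8.43, 8.44, 8.33 and 8.45, so that 2 of the 4 ethanol-treated mice were above all controls and 1 was below them (0.07, SE 0.08, adjusted p = 0.673). A change of 0.37 (SE 0.05, adjusted p = 1.39e-05) was found between the other chips. The effects differed by -0.30 (SE 0.10, adjusted p = 0.0555). Of the 7 tested probes for endothelial cells and pericytes, 1 was called higher and 0 lower over all arrays. Their summed signal was 4237 to 5028 in ethanol-treated mice and 4053 to 5142 in controls, and Pdgfrb, Kcnj8, Anpep, Kdr and Abcb1a were not tested. On chip 3, where Rgs5 was not called, 3 of the 7 were called higher and the sums did not overlap, with 4546 to 5028 in ethanol-treated mice and 4053 to 4163 in controls. The part of these cells in the Rgs5 difference was not tested.

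**Figure D4:**
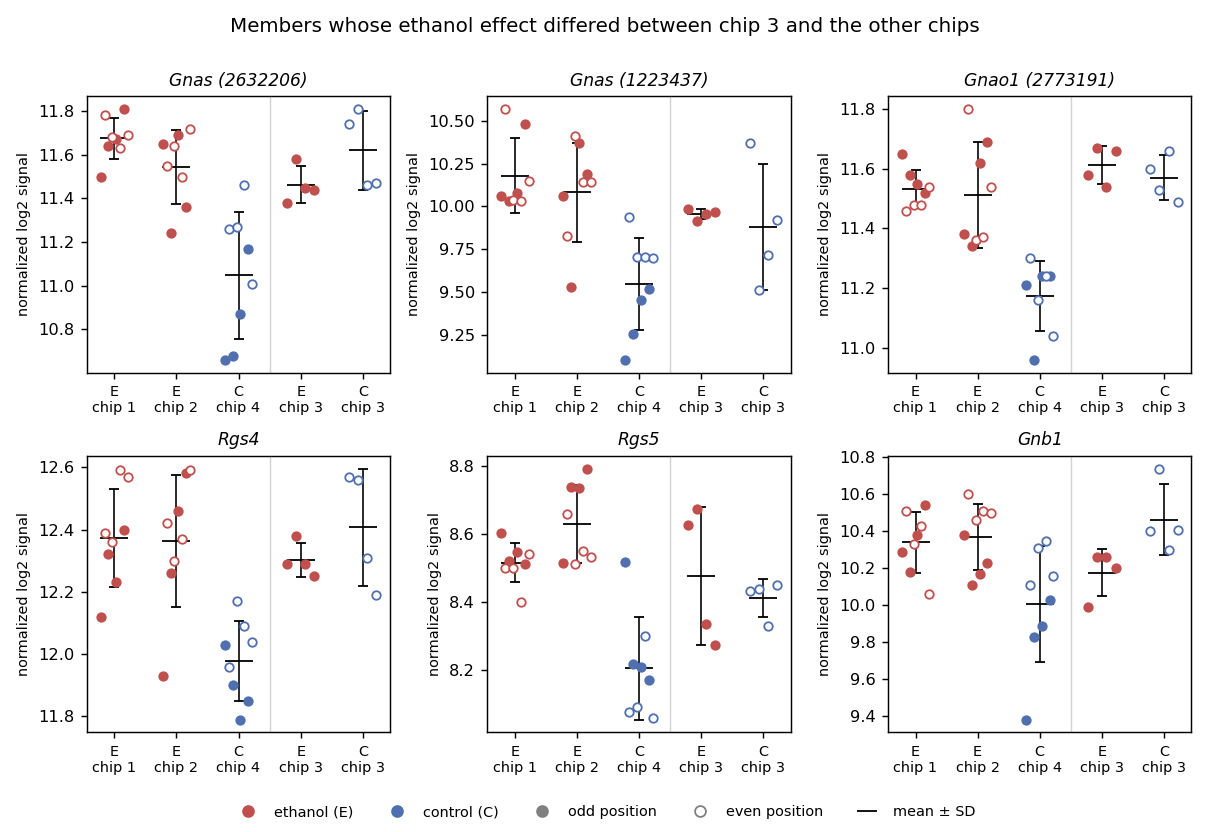
Normalized log2 signal (vertical axes) of each mouse for 6 member probes whose ethanol effect differed between chip 3 and the other chips, by treatment and chip (horizontal axes), with filled points for odd and open points for even positions and bars for the mean ± SD of each set of arrays. All 6 had a negative difference between the effects. The controls of chip 4 are the lowest set for each probe shown, while the controls of chip 3 lie near the ethanol-treated mice. Rgs7 was also called with a negative difference and is not shown. Rgs10, Gnaz and Rgs16 were called by the same test with a positive difference and are not shown either. For these the controls of chip 4 were the highest set by the mean.

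Rgs8 was lower with ethanol over all arrays, with signals from 9.12 over a median of 9.37 to 9.49 against 9.18, 9.52 and 9.94 in controls. All 20 ethanol-treated mice were below the control median, and the change was -0.17 (SE 0.05, 1.12-fold lower, adjusted p = 0.0231). Without control mouse C66 it was -0.13 (adjusted p = 0.0587) and not called. The signals on chip 3 were 9.41, 9.33, 9.43 and 9.45 against 9.18, 9.54, 9.49 and 9.60 (-0.05, SE 0.08, adjusted p = 0.756), and the change between the other chips was -0.21 (SE 0.06, adjusted p = 0.0148). Its neighbor Rgs16 had a change of -0.11 (SE 0.03, adjusted p = 0.0147) over all arrays, which was under 1.1-fold, of 0.02 (SE 0.05, adjusted p = 0.821) on chip 3 and of -0.16 (SE 0.04, adjusted p = 0.00152) between the other chips, where it was called.

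The R12 family gave 2 calls on chip 3. Rgs10, an RGS protein also known from microglia, had signals of 9.79, 9.88, 9.90 and 9.79 in ethanol-treated mice and 9.65, 9.64, 9.70 and 9.77 in controls. The ethanol-treated mice were all higher, by 0.15 (SE 0.05, adjusted p = 0.0928), a call that was lost without A46, A47, A49, C52, C54 or C55 (adjusted p up to 0.201). Between the other chips Rgs10 was lower with ethanol (-0.19, SE 0.06, adjusted p = 0.0152), the effects differed by 0.34 (SE 0.10, adjusted p = 0.0275), and over all arrays, from 9.56 over 9.79 to 9.95 with ethanol and from 9.64 over 9.83 to 10.18 without, the change was -0.09 (SE 0.05, adjusted p = 0.225). Of 10 microglial marker probes 0 were called higher and 1 lower on chip 3, with sums of 4083 to 4412 and 4064 to 4419.

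Rgs12, a large RGS protein with several further domains, had signals of 8.50, 8.45, 8.47 and 8.46 in ethanol-treated mice and 8.54, 8.58, 8.82 and 8.74 in controls of chip 3. All ethanol-treated mice were lower, by a log2 difference of -0.20 (SE 0.06, 1.15-fold, adjusted p = 0.0612), and the call was lost without A47, A49, C55 or C56 (adjusted p up to 0.174). Over all arrays its signals ran from 8.35 over 8.54 to 9.03 with ethanol and from 8.36 over 8.59 to 8.82 without, and the change was -0.01 (SE 0.06, adjusted p = 0.927). Between the other chips it was 0.05 (SE 0.07, adjusted p = 0.659), the opposite sign to chip 3. Oligodendrocyte markers were lower on the same chip: 9 of 15 probes were called lower and 1 higher, with sums of 27053 to 32791 against 29792 to 49251. Of 9 astrocyte probes 4 were called higher there and 0 lower, and the sums, 34824 to 38078 with ethanol and 29345 to 32741 without, did not overlap. Of 8 neuronal probes 2 were called higher and 2 lower on that chip, and 3 higher and 1 lower over all arrays. The part of these cells in the results of chip 3 was not tested. The remaining RGS genes, Rgs3, Rgs6, Rgs7 and Rgs17, had changes between -0.0026 and 0.12 over all arrays and were not called.

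With chip as a fixed term, which leaves the difference to chip 3 and takes the spread from all arrays, 2 members were called (5.88%, against 6.67% of all tested probes). These were Gng2 ILMN_3143604 (-0.36, SE 0.08, adjusted p = 0.0131) and Gna11 (-0.33, SE 0.11, adjusted p = 0.0926). With odd or even position added, 0 of the 34 were called by limma (against 0.0393%), and 4 had an unadjusted p below 0.05. Gng2 was at -0.37 (SE 0.09, adjusted p = 0.121) in that fit and Gna11 at -0.06 (SE 0.09, adjusted p = 0.877). The direct test of whether the ethanol effect differed between chip 3 and the other chips called 10 members (29.4%, against 14.9%): Gnas (both probes), Gnao1 (ILMN_2773191), Gnaz, Gnb1, Rgs4, Rgs5, Rgs7, Rgs10 and Rgs16.

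A few members varied together from mouse to mouse within sets of the same treatment, chip and odd or even position, while most did not at this threshold. Of 561 pairs of tested probes, 6 correlated at an adjusted permutation p below 0.05, all positively and all among 6 probes, while the median size of r over all pairs was 0.18. Gna13, Gnaq and Rgs7bp formed a group in which r was 0.83 (rho = 0.81, permutation p = 1e-05, adjusted p = 0.00421) for Gna13 with Gnaq, 0.82 (rho = 0.82, permutation p = 2e-05, adjusted p = 0.00421) for Gnaq with Rgs7bp, and 0.76 (rho = 0.76, permutation p = 3e-05, adjusted p = 0.00421) for Gna13 with Rgs7bp. Without the 2 mice farthest from the median, r was 0.79, 0.78 and 0.74. Within single chips r for these pairs ranged from 0.72 to 0.92. Rgs5 joined Gnaq (r = 0.75, rho = 0.71, permutation p = 0.00029, adjusted p = 0.0271) and Gna13 (r = 0.67, rho = 0.74, permutation p = 0.00013, adjusted p = 0.0146).

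The pair with the highest r was Gng4 with Rgs12 (r = 0.84, rho = 0.80, permutation p = 3e-05, adjusted p = 0.00421, r = 0.78 without the 2 farthest mice), although on chip 3 alone it was 0.36. Rgs12 also followed the bulb markers (r = 0.73, rho = 0.67, permutation p = 0.00025, adjusted p = 0.0015). On chip 3, however, the bulb markers and Gng4 were higher in ethanol-treated mice and Rgs12 was lower. Gna13, Gnaq, Rgs5 and Rgs7bp had r between -0.27 and 0.08 with the bulb markers, and with the number of detected probes r was between 0.03 and 0.29 for the 6 probes.

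**Figure D5:**
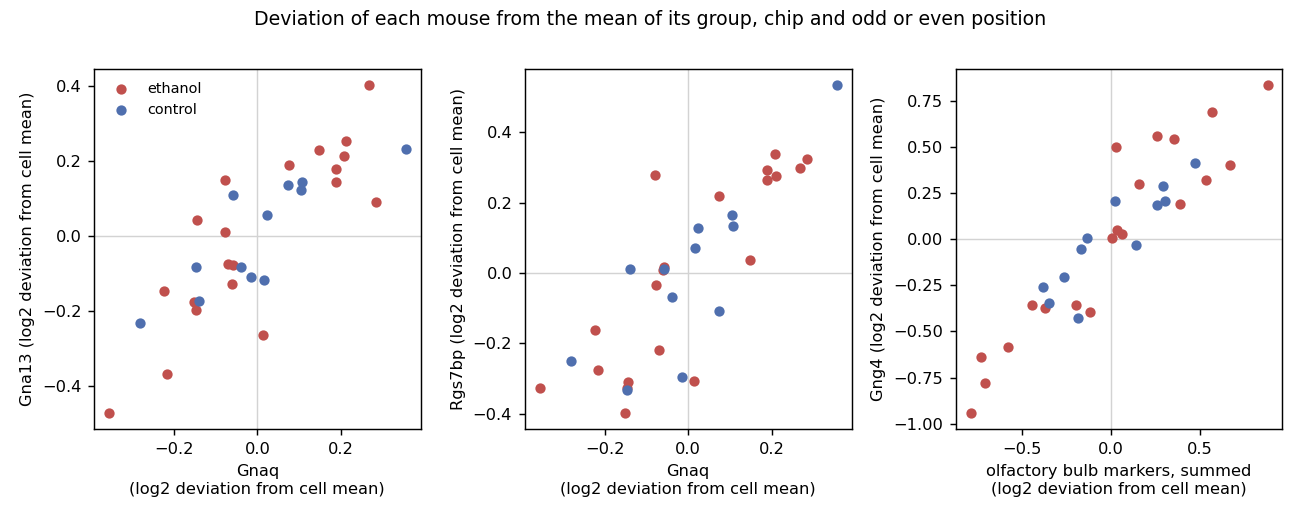
Deviation of each of the 32 mice, in log2 units, from the mean of its treatment, chip and odd or even position: Gna13 against Gnaq (r = 0.83), Rgs7bp against Gnaq (r = 0.82) and Gng4 against the summed olfactory bulb markers (r = 0.924). Red points are ethanol-treated mice and blue points controls, and the points of each panel rise from left to right.

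Of the genes that work with G proteins (adenylyl cyclases, phospholipase C beta, potassium channels, receptor kinases, arrestins, chaperones, activators and 1 other), 21 probes of 19 genes out of 33 symbols were tested. Over all arrays 1 was called higher and 2 lower, 14.3% against the 14.5% of all tested probes. Ric8b, a chaperone of Gs-type α subunits, was called higher at 1 of its 2 probes (ILMN_3138057), with 8.86 ± 0.14 (SD, n = 20) against 8.70 ± 0.13 (SD, n = 12), a change of 0.16 (SE 0.05, adjusted p = 0.0172). Its other probe, ILMN_2728107, changed in the same direction by 0.12 (SE 0.05, adjusted p = 0.0756), which was under 1.1-fold. Adcy6, an adenylyl cyclase inhibited by Gi, was lower at 8.54 ± 0.12 against 8.71 ± 0.09 (SD; change -0.17, SE 0.04, adjusted p = 0.00313). Arrb2, the β-arrestin that uncouples receptors from G proteins, was lower at 8.76 ± 0.12 against 8.94 ± 0.08 (SD; change -0.18, SE 0.04, adjusted p = 0.00237). On chip 3, 4 of these probes, among them both of Ric8b, were called higher (against 8.2% of all tested probes) and 1, Arrb2, lower (against 8.64%). Adcy6 changed there by -0.17 (SE 0.07, adjusted p = 0.121). Between the other chips the changes were 0.14 (adjusted p = 0.0741) for Ric8b ILMN_3138057, -0.18 (adjusted p = 0.00596) for Adcy6 and -0.18 (adjusted p = 0.0114) for Arrb2.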

How the data were processed

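RNA from FCtx of 20 ethanol-treated and 12 control mice was hybridized to 1 array each. The intensity values the authors deposited are mean bead signals per probe, not normalized. Beside each one they deposited a detection p-value (set against negative controls) and 2 other values, namely how many beads were read and the standard error of their signals. The software and background step are not given in the sources used here. Groups, mice and chips came from the labels, and 0 columns were left without a sample.

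Signals were variance-stabilized from the bead errors and quantile-normalized, after the steps the methods name. Ethanol was compared with control by limma 3.58.1 (R 4.3.3, data.table version 1.17.8), with Benjamini-Hochberg adjustment over 10187 probes. In Python 3.11.15 with numpy 2.4.6, pandas 2.3.3 and matplotlib 3.10.9, correlations were tested by permutation within sets of arrays. This correlation analysis was chosen after the data were seen. The transform, the limma fits and the correlation test were tested on simulated data.

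Named are all member genes called over all arrays or on chip 3 (17 genes, 20 probes), and the related genes called over all arrays. Members, lists and the call rule were chosen with earlier results of these data known. Mice of a group are separate animals. The number of arrays limits the precision. Sequences before start sites come from RefSeq (GRCm38.p6), where 40 of the 53 symbols had one. The sequence of the other tested Gnas probe is not reported here.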

Additional observations from a re-analysis of the deposited data

Results flagged for a closer look

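In 7 of the 20 probes named by rule, the ethanol effect on chip 3 differed from that between chips 1 and 2 and chip 4. The test was of the difference itself (limma, over all tested probes) and called 14.9% of all tested probes. The 20 belong to genes named for a call over all arrays or on chip 3, so these shares are not comparable. The difference was 0.34 (adjusted p = 0.0275) for Rgs10, -0.49 (adjusted p = 0.0115) for Rgs4, -0.30 (adjusted p = 0.0555) for Rgs5 and -0.30 (adjusted p = 0.0355) for Gnao1 ILMN_2773191. It was -0.51 (adjusted p = 0.0951) for Gnas ILMN_1223437, -0.72 (adjusted p = 0.0032) for Gnas ILMN_2632206 and -0.64 (adjusted p = 0.0117) for Gnb1. The same test called 3 further members, Gnaz (0.32, adjusted p = 0.0371), Rgs7 (-0.29, adjusted p = 0.0318) and Rgs16 (0.19, adjusted p = 0.0564).

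A single control of chip 3 stood apart from the other 3 in 3 probes. Rgs5 was 8.328 in mouse C55, with the others from 8.431 to 8.448, Gng13 was 12.55 in C55, with the others from 12.44 to 12.46, and Rgs7bp was 11.24 in C56, with the others from 11.64 to 11.7. Among the 100 sets of mice examined, chance gives about 1 such value in 20 sets.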

How the results depend on the processing

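All counts here are of member probes called by limma unless stated. Over all arrays 14 were called, against 8 with median scaling, 2 with chip as a fixed term, 0 with chip and odd or even position as terms, and 9 at an FDR below 1%. On chip 3 the 10 calls became 6 when all probes were tested and 2 at an FDR below 1%, and they ranged from 6 (without A47) to 11 (without A50) when 1 mouse was left out. Between chips 1 and 2 and chip 4 the 20 calls became 10 at an FDR below 1% and 9 with median scaling. All 9 were higher, as were 94.5% of the calls over all tested probes with that scaling (1768 higher and 103 lower). For position the 7 calls became 11 with normexp background correction and 1 at an FDR below 1%, for chip 1 against chip 2 the 1 call became 9 with median scaling and 0 at an FDR below 1%, and for the difference between the effects the 10 calls became 4 and 1. Of the related pathway genes 3 probes were called, against 6 on plain log2 signals, 10 with normexp, 1 with chip as a fixed term and 0 with chip and position.

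The direction of the change over all arrays turned with chip as a fixed term for Rgs10 (0.15), Rgs4 (-0.10), Gnao1 ILMN_2753422 (-0.022), Gnas ILMN_2632206 (-0.16), Gnb1 (-0.29) and Gng2 ILMN_1214150 (0.089). With position added it turned for Rgs10 (0.11), Rgs5 (-0.048), Gnao1 ILMN_2753422 (-0.069), Gnb1 (-0.045) and Gng2 ILMN_1214150 (0.040). Median scaling turned Rgs12 (0.043) and Gng2 ILMN_1214150 (0.0024). On chip 3, leaving out 1 mouse gave changes from -0.00025 to 0.13 for Rgs5, from -0.14 to 0.0025 for Rgs8, from -0.071 to 0.050 for Gnao1 ILMN_2753422 and from -0.047 to 0.24 for Gnas ILMN_1223437, none of them called with all mice. Gnas ILMN_1223437 was called without C52. The causes were not tested.

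With chip as a random block Gnas ILMN_2632206, Rgs4 and Rgs8 were no longer called. On chip 3 Gnb1, Gnb2 and Rgs10 were not called with median scaling or with normexp. When all probes were tested, Gnb1, Gnb2, Gng4 and Rgs7bp were not called there. No paired analysis was possible because ethanol-treated mice and controls share no mouse numbers.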

Other observations

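Among the probes detected on too few arrays to be tested, 4 came closest. Rgs2, a regulator of Gq, was detected in 13 of 20 ethanol-treated mice and 6 of 12 controls, and Rgs14 in 7 and 7. A probe of a non-coding Gnas transcript (ILMN_3075080) was detected in 14 and 6 mice, among them all 8 of chip 2 and 3 of the 8 of chip 1. The second Gnb4 probe (ILMN_2726905) was detected in 14 and 9 mice, with 7 on chip 2 and 3 on chip 1. No level or test is given for these, since most of their signals lie near background.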
